A study of Arabidopsis thaliana with 18 samples.

Results

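LTP1 to LTP6 and LTP12 are 7 genes for type 1 lipid transfer proteins of Arabidopsis thaliana. They were taken by gene identifier, 7 of the 37686 genes in each library's gene table, and read in all 18 libraries. The identifiers are AT2G38540 (LTP1), AT2G38530 (LTP2), AT5G59320 (LTP3), AT5G59310 (LTP4), AT3G51600 (LTP5), AT3G08770 (LTP6) and AT3G51590 (LTP12). They were chosen as a family and selected on measured values too: the high levels of LTP3 and LTP4 in older cultured explants of these libraries were already known. For that reason the values of these 7 genes in every comparison that contains the 15-day cultured libraries are given below as a description with no p-value, and so are those of LTP3 and LTP4 in comparisons that contain the 12-day cultured libraries. Counts of members past the threshold in those comparisons are printed only beside the share or number of all genes called, and nothing is read from them. Other genes keep their tests.

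The study measured polyadenylated RNA by sequencing in the first rosette leaves of Columbia-0, the standard wild-type accession, and the labels name no transgene or mutation in any group. Seedlings grew in constant light on half-strength MS medium with sucrose for 9, 12 or 15 days. Leaves were taken either at detachment (9-, 12- and 15-day before culture) or 1 day after they were placed as explants on B5 medium without sucrose in constant light (9-, 12- and 15-day after culture). Each of the 6 groups had 3 libraries. The comparisons ask how the genes differ between leaf ages, before and after culture, and how culture changes them at each age. Culture in these samples always combines detachment, the move to another medium, loss of the sugar supply and 1 more day of age, which cannot be told apart.

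Type 1 lipid transfer proteins are small secreted proteins with a signal peptide and conserved disulphide bridges around a hydrophobic cavity that holds fatty acids and other lipids. They are made largely in the epidermis, lie in the cell wall and cuticle, and are thought to carry cutin and wax precursors outside the cell. Several members are also known to be induced by abscisic acid, drought or pathogens.

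Of the 7 genes 6 lie next to another member in the TAIR10.1 genome, and each gene has 2 exons. LTP2 (chr2:16128176-16129399) and LTP1 (chr2:16130290-16131240) follow each other on the plus strand with 890 bases between them. LTP12 (chr3:19135619-19136675) and LTP5 (chr3:19138338-19139423) lie 1662 bases apart on the minus strand. LTP4 (chr5:23924990-23925957, minus strand) and LTP3 (chr5:23928954-23929816, plus strand) point away from each other, with start sites 2997 bases apart and no gene between them. LTP6 (chr3:2664069-2664888, minus strand) stands alone. The coding sequences are 339 to 360 bases long. LTP3 and LTP4 share 84.5% of coding bases in alignment, with a longest identical run of 44 bases, and LTP1 and LTP2 share 82.4%, with a longest run of 27 bases. Every other 2 members share 49.5 to 67.8%.

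The 300 bases before the annotated start are shown for LTP3 and LTP4, which moved together, and for LTP2, which was higher after culture than before it at every age. They were read 5′ to 3′ on each gene's own strand from the RefSeq TAIR10.1 genome, at chr5:23928654-23928953 (LTP3, plus strand), chr5:23925958-23926257 (LTP4, minus strand) and chr2:16127876-16128175 (LTP2, plus strand). Capitals mark short words found by search and, in LTP4, a repeat.
LTP3: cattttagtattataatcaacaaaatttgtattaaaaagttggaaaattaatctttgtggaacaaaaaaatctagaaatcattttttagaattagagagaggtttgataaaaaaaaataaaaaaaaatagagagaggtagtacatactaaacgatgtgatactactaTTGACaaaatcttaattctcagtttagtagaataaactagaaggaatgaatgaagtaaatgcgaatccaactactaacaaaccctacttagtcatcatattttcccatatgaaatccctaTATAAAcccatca
LTP4: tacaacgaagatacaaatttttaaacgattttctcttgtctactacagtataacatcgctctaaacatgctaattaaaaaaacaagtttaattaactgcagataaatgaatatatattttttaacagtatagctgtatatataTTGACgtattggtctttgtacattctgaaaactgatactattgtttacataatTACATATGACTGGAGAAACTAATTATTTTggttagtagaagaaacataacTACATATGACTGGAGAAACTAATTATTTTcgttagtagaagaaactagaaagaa
LTP2: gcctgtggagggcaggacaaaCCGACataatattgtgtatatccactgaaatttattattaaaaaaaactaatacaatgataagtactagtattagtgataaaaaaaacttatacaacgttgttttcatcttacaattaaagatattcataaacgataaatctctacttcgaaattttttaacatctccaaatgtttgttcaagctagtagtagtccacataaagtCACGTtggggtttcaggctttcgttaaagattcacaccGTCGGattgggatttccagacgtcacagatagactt

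The words searched were ACGTG (the core of the abscisic acid response element), CCGAC (the core of the dehydration-responsive element), TTGAC (the core of the W-box bound by WRKY factors), CACGTG (the G-box, which contains the first word), the L1 box of epidermal genes (TAAATGCA or TAAATGTA), each on both strands, and TATAAA on the gene's strand only. Of 27443 promoters of this length, 25.6% held ACGTG, 13.9% CCGAC, 50.4% TTGAC, 7.09% CACGTG, 5.51% the L1 box and 37% TATAAA. The LTP2 window held 1 ACGTG and 2 CCGAC. The LTP3 and LTP4 windows each held 1 TTGAC, and LTP3 also held TATAAA 13 bases before its start. LTP1 and LTP5 held 1 TTGAC each, LTP12 held 1 CCGAC and 2 TATAAA, and LTP6 held none of these words. In 1000 bases the count of ACGTG was 5 for LTP4, 3 for LTP1, 2 for LTP3 and LTP5, 1 for LTP2 and LTP12 and 0 for LTP6, and 54.4% of promoters of that length held at least 1. The share with higher counts was not computed. Each CACGTG adds 2 to this count, since both strands were read, and LTP1, LTP3 and LTP4 each held 1 CACGTG. The long capitals in LTP4 are a run of 29 bases that occurs in 2 exact copies, starting 104 and 54 bases before the start, which was noticed on reading the sequence. Of the 27443 windows, 131 (0.477%) held a direct repeat of that length, and the longest one in the other 6 members was 7 to 11 bases.

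Library totals ran from 29664089 to 51126114 expected counts, and replicates of a group correlated at 0.906 to 0.986 in log2 CPM. Replicate 2 of the 12-day and of the 15-day leaves before culture stood apart, with deviations from their group means that correlated at 0.683, so results that use them are also given without them. The replicate 3 libraries carry differently named tags in the labels, and values from replicates 1 and 2 and from replicate 3 alone are given where they matter. Those from replicate 3 alone are plain differences of log2 CPM with a prior count of 2, which shrinks differences at low counts. They are not the same measure as the fitted log2 fold changes beside them. All 126 expected counts of the members were whole, as were 90.5% of the values over all genes. The counting program returns fractions where it splits reads between genes. A gene's own levels are compared in CPM with TMM library factors, and different genes are compared in the deposited TPM, which are per transcript length. Tests are edgeR's quasi-likelihood test on all 20952 genes that passed the count filter, with Benjamini-Hochberg adjusted p-values and a threshold of 0.05. Of the 7 genes, 6 passed the filter and LTP12 did not. In these whole leaves, fewer cells of a type and less RNA per cell cannot be told apart.

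The summed level of the 7 genes was lower in older intact leaves and higher after culture, a description with no test. It was 1137 ± 144 TPM (SD, n = 3) in 9-day leaves before culture, 791 ± 189 at 12 days and 418 ± 57.9 at 15 days. After culture it was 1808 ± 58 TPM at 9 days, 2816 ± 1465 at 12 days and 2970 ± 1028 at 15 days. The 3 cultured 12-day libraries held 1818, 4498 and 2133 TPM, and the 3 cultured 15-day libraries 3313, 3782 and 1815 TPM. LTP3 and LTP4 together made up at most 0.565% of the summed TPM in any library before culture. In cultured 15-day explants they made up 49.1%, 45.4% and 23%, and in cultured 12-day explants 4.72%, 48.6% and 17.1%.

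**Figure D1:**
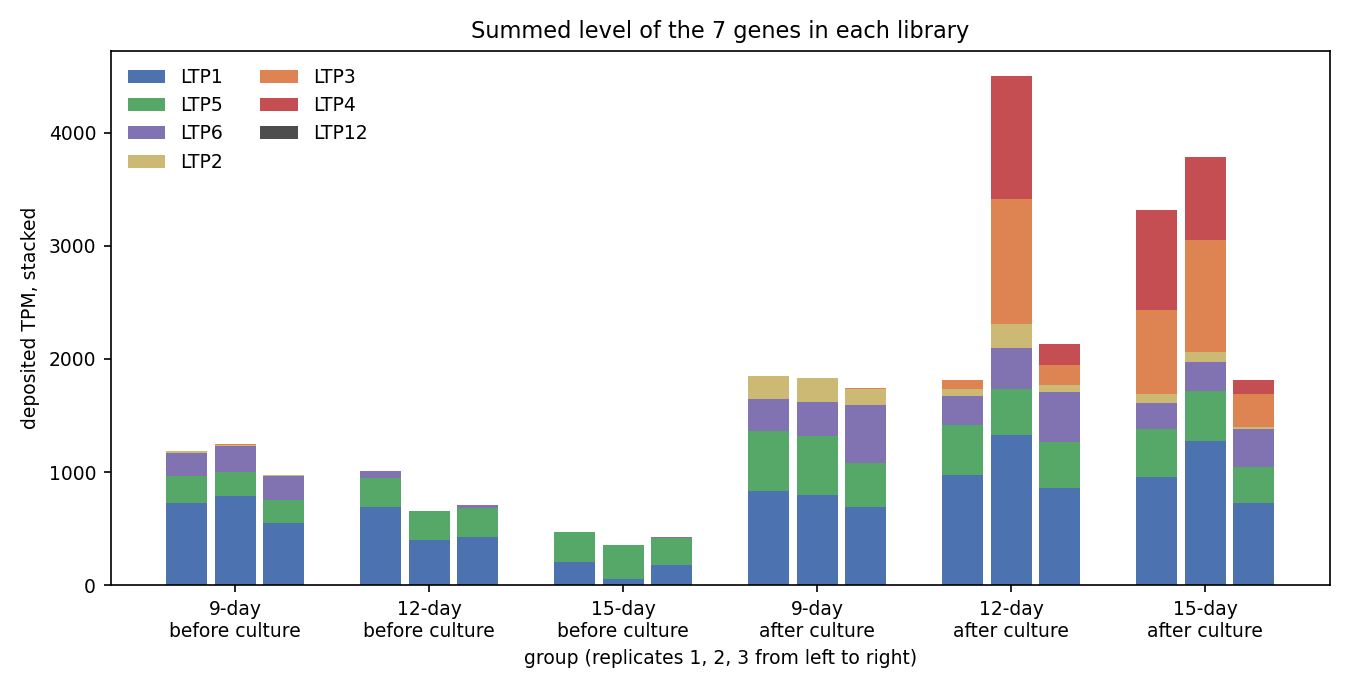
Deposited TPM of the 7 genes stacked for each of the 18 libraries, with replicates 1, 2 and 3 side by side in each group. The stack falls from a mean of about 1137 TPM at 9 days to 418 TPM at 15 days before culture. LTP3 and LTP4 make up 49.1%, 45.4% and 23% of it in the cultured 15-day libraries. In the cultured 12-day libraries they make up 4.72%, 48.6% and 17.1%.

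The order of the levels changed with age and culture. In 9-day leaves before culture LTP1 stood first at 691 TPM, followed by LTP5 at 218 TPM and LTP6 at 215 TPM, whose libraries overlapped, then LTP2 at 11.9 TPM, with LTP4 at 1.22 TPM and LTP3 at 0.437 TPM overlapping each other below it. In 12-day leaves LTP1 (504 TPM), LTP5 (258 TPM) and LTP6 (27.4 TPM) were apart from each other, and LTP4, LTP3 and LTP2 lay between 0.4 and 0.757 TPM, with overlap between neighbours. In 15-day leaves LTP5 (269 TPM) stood above LTP1 (147 TPM) with no overlap, and LTP6, LTP4, LTP3, LTP2 and LTP12 were all at 1.53 TPM or less, each overlapping the next. In cultured 9-day explants the order was LTP1, LTP5, LTP6, LTP2, LTP3, LTP4 and LTP12 at 774, 482, 364, 184, 2.83, 0.877 and 0.107 TPM, with overlap between LTP5 and LTP6 and between LTP3 and LTP4. In cultured 12- and 15-day explants LTP1 led at 1054 and 988 TPM. LTP3 (455 and 674 TPM), LTP4 (424 and 579 TPM), LTP5 (419 and 395 TPM) and LTP6 (352 and 272 TPM) followed it in that order at both ages, and every neighbour among these 5 overlapped. LTP2 was below LTP6 with no overlap at both ages, at 112 and 61.7 TPM.

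**Figure D2:**
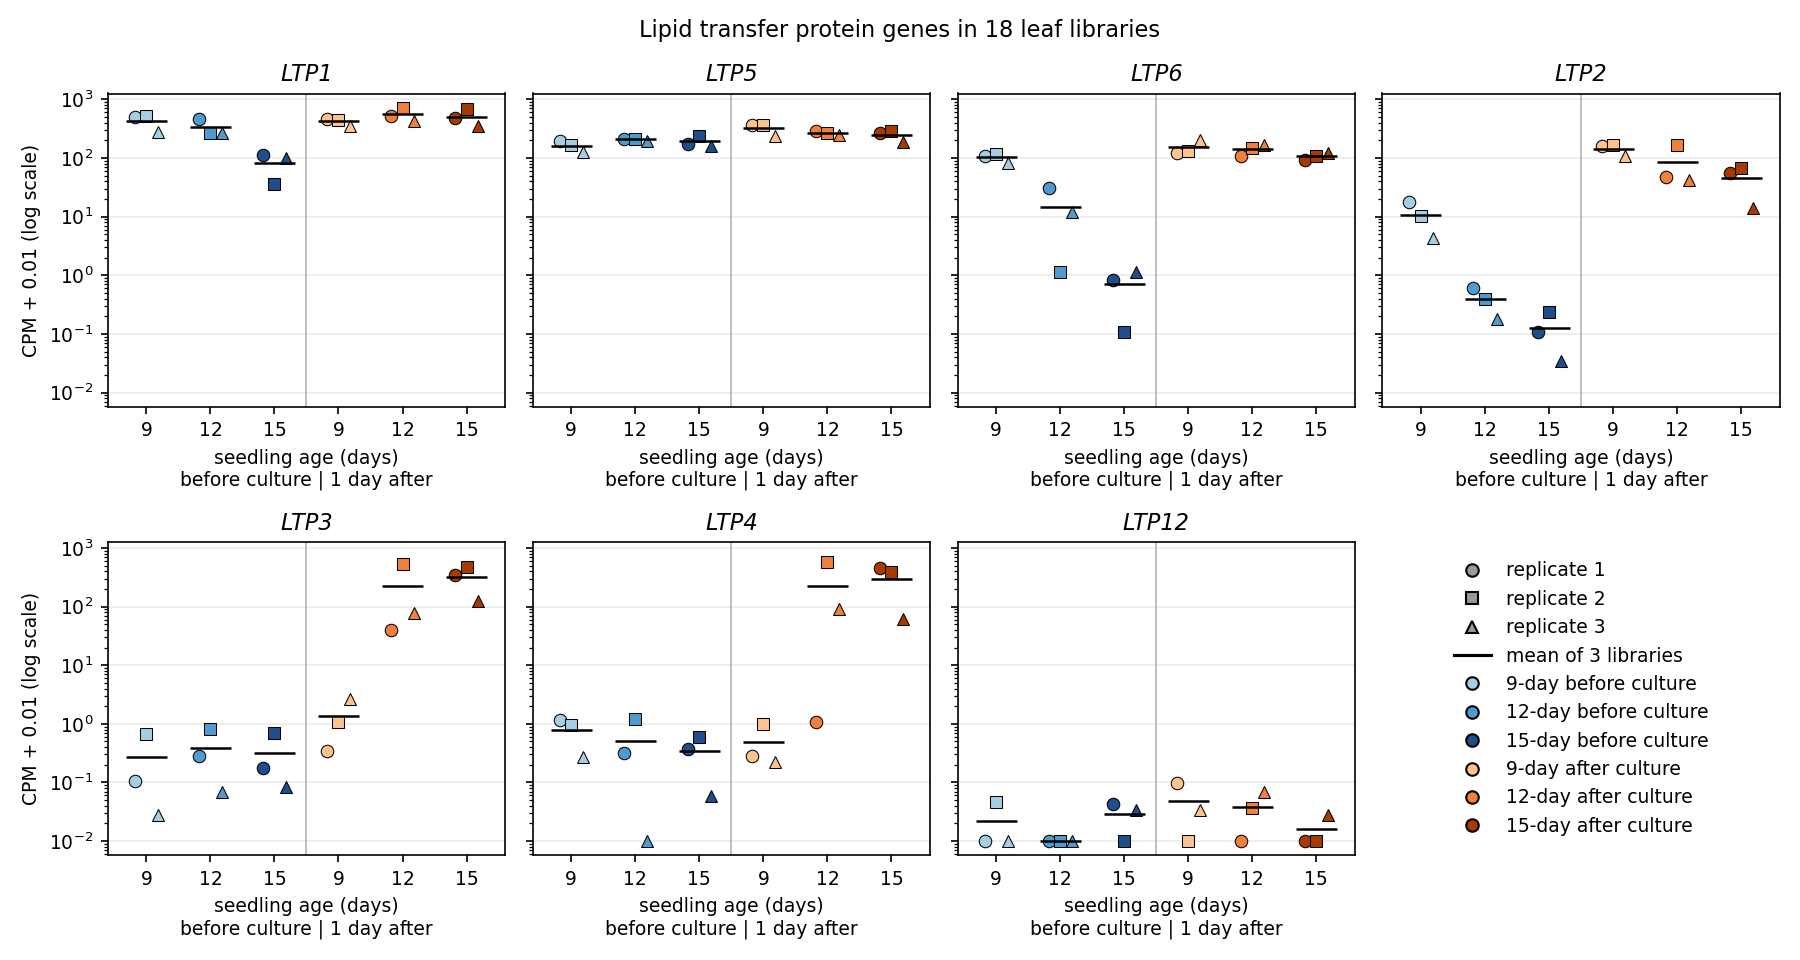
CPM of each gene in each of the 18 libraries on a log axis, with 0.01 added so that 0 can be drawn, by age before culture (left of the grey line) and 1 day after (right). Black bars are means of 3 libraries. LTP6 and LTP2 fall with age before culture and lie higher in each cultured group than in intact leaves of the same age. LTP3 and LTP4 are near or below 1 CPM before culture and reach 540 and 584 CPM in cultured explants.

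LTP1, a calmodulin-binding member found in epidermal cell walls, was lower in 15-day intact leaves than at either younger age. Its libraries held 492, 515 and 277 CPM at 9 days before culture, 464, 268 and 265 CPM at 12 days, and 111, 35.8 and 99.3 CPM at 15 days. The 15-day libraries lay below all others of the gene. From 12 to 15 days LTP1 fell by 2.02 ± 0.40 on the log2 scale (SE; adjusted p = 0.00396), and from 9 to 15 days it fell by 2.38 ± 0.41, which is 5.21-fold (adjusted p = 0.000324). The 12-day leaves did not pass the test against 9 days (-0.36 ± 0.39, adjusted p = 0.601). The fall from 9 to 15 days was -2.78 in replicates 1 and 2, -1.48 in replicate 3 alone and -2.02 without the libraries that stood apart. The call from 12 to 15 days was lost without replicate 1 of every group (-2.00, adjusted p = 0.102).

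After culture LTP1 was at 462, 447 and 355 CPM in 9-day explants, 516, 721 and 423 CPM in 12-day explants, and 491, 675 and 354 CPM in 15-day explants. The 3 cultured groups overlapped each other. Culture did not change LTP1 past the threshold at 9 days (log2 -0.02 ± 0.39, adjusted p = 0.985) or at 12 days (0.73 ± 0.39, adjusted p = 0.21). At 15 days the cultured libraries stood above the intact ones by 2.62 ± 0.41 on the log2 scale, a ratio of 6.16, as a description.

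LTP6, another member of the family, was high in 9-day intact leaves and lower at each later age. Before culture it was at 108, 118 and 81.1 CPM at 9 days, at 30.6, 1.14 and 11.8 CPM at 12 days, and at 0.82, 0.0964 and 1.15 CPM at 15 days. The 15-day values rest on 25, 3 and 47 counts. The 12-day libraries were all below the 9-day ones, and the lowest of them, replicate 2, lay among the 15-day libraries. LTP6 fell by 2.82 ± 0.77 (log2) from 9 to 12 days (adjusted p = 0.0376), fell by 4.36 ± 0.86 from 12 to 15 days (adjusted p = 0.00378) and fell by 7.18 ± 0.96 from 9 to 15 days, a 145-fold lower level (adjusted p = 4.4e-05). The first of these calls was lost when any of 10 of the 18 libraries was left out, with adjusted p-values up to 0.101, and without replicate 1, 2 or 3 of every group (adjusted p = 0.115, 0.0582 and 0.187). Without the 2 libraries that stood apart it was -2.27 (adjusted p = 0.0037). The call from 12 to 15 days was lost in replicates 1 and 2 (-5.08, adjusted p = 0.0686) and without replicate 1 of every group (-3.34, adjusted p = 0.154), while the call from 9 to 15 days held there (-7.94, adjusted p = 0.00557), and the difference was -6.08 in replicate 3 alone.

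In cultured explants LTP6 was at 123, 132 and 199 CPM at 9 days, 107, 151 and 168 CPM at 12 days and 92.3, 107 and 123 CPM at 15 days. The 3 groups overlapped, and the 12-day explants differed from the 9-day ones by -0.09 ± 0.72 on the log2 scale (adjusted p = 0.98). Culture raised LTP6 in 12-day leaves by 3.29 ± 0.79, a 9.8-fold higher level (adjusted p = 0.00828). In 9-day leaves the groups did not overlap but the difference missed the threshold (0.57 ± 0.72, adjusted p = 0.711). In replicates 1 and 2 the 12-day rise was 3.06 and was not called (adjusted p = 0.134), and without the libraries that stood apart it was 2.74 (adjusted p = 0.00029). In 15-day leaves the cultured libraries were 7.25 ± 0.97 above the intact ones on the log2 scale, given as a description.

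LTP5, known in Arabidopsis for a gain-of-function allele that disturbs pollen tube growth, was expressed in every library, from 127 to 363 CPM. It was at 193, 170 and 127 CPM in 9-day leaves, 214, 211 and 197 CPM in 12-day leaves and 175, 241 and 163 CPM in 15-day leaves before culture. None of the 3 differences between these ages passed the test, and they lay between -0.10 and 0.35 on the log2 scale. After culture it was at 363, 360 and 242 CPM at 9 days, 288, 269 and 245 CPM at 12 days, and 265, 287 and 187 CPM at 15 days. Culture raised LTP5 1.97-fold in 9-day leaves (log2 0.98 ± 0.22, adjusted p = 0.0112). The rise was 0.96 in replicates 1 and 2 (adjusted p = 0.0285) and 0.93 in replicate 3. Leaving out 1 library (replicate 3 before culture or replicate 2 after it) moved the adjusted p to 0.0502 and 0.0515, and leaving out replicate 1 or 2 of every group moved it to 0.2 and 0.114. At 12 days the cultured libraries were all above the intact ones, but the difference of 0.37 ± 0.22 did not pass (adjusted p = 0.274), while on the deposited TPM it was 0.70 (adjusted p = 0.00481). At 15 days the difference was 0.35 ± 0.22, as a description.

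LTP2, the neighbour of LTP1 and an epidermal protein known from the cuticle of etiolated seedlings, was lower in intact leaves than in cultured explants of the same age. Before culture it was at 18, 10.07 and 4.26 CPM at 9 days, at 0.588, 0.379 and 0.173 CPM at 12 days and at 0.0984, 0.225 and 0.0244 CPM at 15 days. The last of these rest on 3, 7 and 1 counts. LTP2 fell by 4.85 ± 0.81 (log2) from 9 to 12 days (adjusted p = 0.00243) and fell by 6.57 ± 0.93 from 9 to 15 days (adjusted p = 6.76e-05). The step from 12 to 15 days was not called (-1.72 ± 1.05, adjusted p = 0.292). Both calls held in replicates 1 and 2 (adjusted p = 0.0152 and 0.000774) and without the libraries that stood apart (adjusted p = 0.0123 and 0.000421). The call from 9 to 12 days was lost without replicate 1 of every group (-4.70, adjusted p = 0.0821).

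In cultured 9-day explants LTP2 was at 158, 165 and 107 CPM, in 12-day explants at 46.9, 164 and 42.5 CPM, and in 15-day explants at 54.9, 67.1 and 14.3 CPM. Every cultured library lay above every intact library of the same age. Across ages they overlapped: replicate 3 of the cultured 15-day explants (14.3 CPM) lay below replicate 1 of the intact 9-day leaves (18 CPM). Culture raised LTP2 13.3-fold at 9 days (log2 3.74 ± 0.71, adjusted p = 0.00382) and 227-fold at 12 days (7.83 ± 0.89, adjusted p = 4.59e-05). These rises were 3.48 and 7.78 in replicates 1 and 2 (adjusted p = 0.0199 and 0.00223) and 4.63 and 7.55 in replicate 3 alone. The call at 9 days was lost without replicate 1 of every group (4.25, adjusted p = 0.0734). Counted as 1 gene with the more abundant LTP1, the pair changed by 0.36 at 9 days and 0.94 at 12 days after culture and by -0.40 from 9 to 12 days before it, with no call (adjusted p = 0.662, 0.121 and 0.579). The 15-day difference was 8.65 ± 0.97, as a description. The larger rise at 12 than at 9 days was a difference of 4.09 ± 1.01 that did not pass the test in edgeR (adjusted p = 0.127). It passed with replicate 3 as a batch term (3.87, adjusted p = 0.0303) and in DESeq2 (4.11, adjusted p = 0.00457). The cultured 12-day explants did not differ from the 9-day ones past the threshold (-0.76 ± 0.63, adjusted p = 0.63), and the 15-day ones were 1.66 ± 0.65 lower than the 9-day ones on the log2 scale, as a description.

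**Figure D3:**
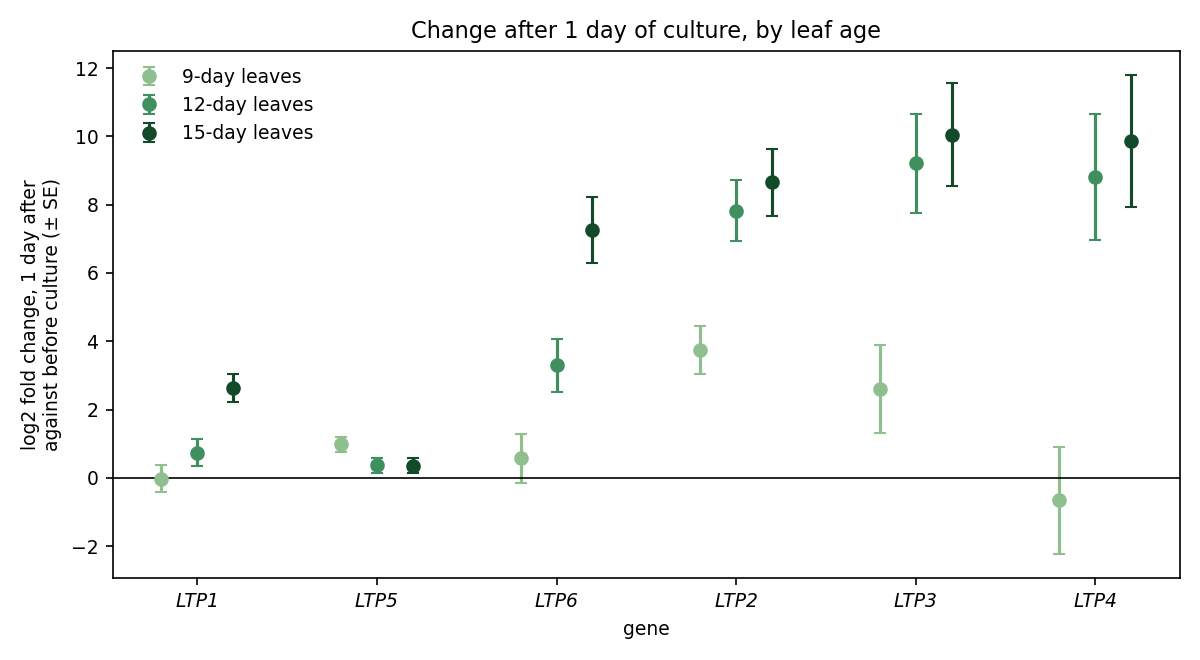
Log2 fold change after 1 day of culture against before culture, with SE, for the 6 genes that passed the count filter, by leaf age. LTP2 lies above 3 at all ages, LTP3 and LTP4 near 9 to 10 at 12 and 15 days, and LTP5 between 0.35 and 0.98.

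LTP3 and LTP4, neighbouring genes whose proteins are known from responses to abscisic acid, drought, freezing and bacterial infection, were nearly silent in intact leaves of every age. LTP3 had 3, 18 and 1 counts in the 9-day libraries before culture, 7, 23 and 2 at 12 days and 5, 21 and 3 at 15 days, which is 0.0184 to 0.793 CPM. LTP4 had 36, 26 and 14 counts at 9 days, 8, 35 and 0 at 12 days and 11, 18 and 2 at 15 days, up to 1.21 CPM. No age difference before culture passed the test for either gene (adjusted p from 0.564 to 0.903). In each intact group replicate 2 held the most LTP3.

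In cultured 9-day explants both genes were still low. LTP3 had 11, 37 and 110 counts (0.328, 1.08 and 2.64 CPM) and LTP4 had 9, 33 and 9 (0.268, 0.966 and 0.216 CPM). Neither change after culture passed the test, with log2 2.60 ± 1.29 for LTP3 (adjusted p = 0.241) and -0.66 ± 1.57 for LTP4 (adjusted p = 0.863). The LTP3 value ran from 1.65 to 4.72 with 1 library left out, and was 0.90 in replicates 1 and 2. In replicate 3 alone the plain difference of log2 CPM was 5.19.

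In cultured 12-day explants LTP3 was at 40.4, 540 and 78.7 CPM and LTP4 at 1.05, 584 and 92.4 CPM. In cultured 15-day explants LTP3 was at 347, 473 and 126 CPM and LTP4 at 449, 386 and 61.9 CPM. All 6 of these libraries held more LTP3 than any other library, and 5 of them more LTP4. The exception was replicate 1 of the 12-day explants, with 37 LTP4 counts beside 1423 of LTP3, and its LTP4 level was within the range of intact 12-day leaves. The other 2 libraries of that group held 20013 and 2667 counts of LTP3 and 21635 and 3129 of LTP4. As a description, the log2 difference after culture was 9.21 ± 1.45 for LTP3 and 8.82 ± 1.85 for LTP4 at 12 days, and 10.05 ± 1.498 and 9.87 ± 1.94 at 15 days. Against cultured 9-day explants, LTP3 was 7.33 ± 1.31 and 7.85 ± 1.34 higher at 12 and 15 days, and LTP4 8.88 ± 1.85 and 9.28 ± 1.88 higher. Between 12 and 15 days after culture the difference was 0.52 ± 0.98 for LTP3 and 0.41 ± 1.28 for LTP4, and 0.02 and -0.18 without replicate 1 of the 12-day explants. With 1 library left out the 12-day difference after culture ran from 7.33 to 10.45 for LTP3 and from 6.55 to 10.63 for LTP4.

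**Figure D4:**
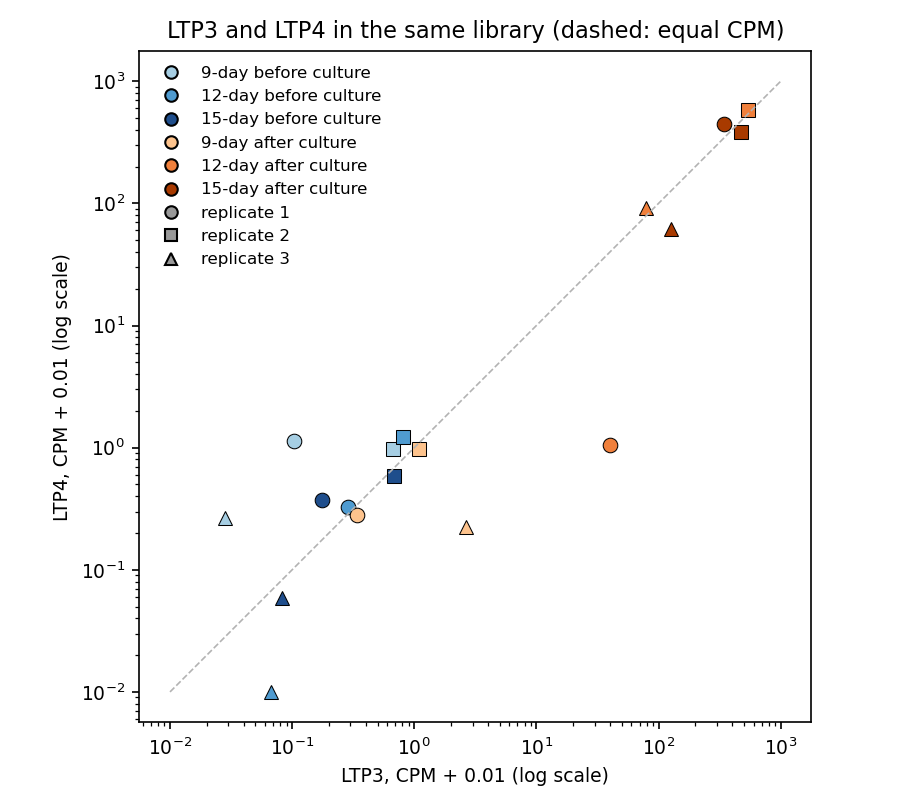
LTP3 against LTP4 in each of the 18 libraries, both in CPM on log axes with 0.01 added. Of the 6 cultured 12- and 15-day libraries, 5 lie near the dashed line of equal CPM and replicate 1 of the cultured 12-day explants lies far below it, at 40.4 CPM of LTP3 and 1.05 CPM of LTP4.

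Where both genes were high their counts were of similar size. LTP3 made up 43.6% to 67.1% of their joint counts in 5 of the 6 cultured 12- and 15-day libraries and 97.5% in replicate 1 of the 12-day explants. Counting them as 1 gene, so that reads split between them cannot matter, gave a log2 difference after culture of 8.99 ± 1.52 at 12 days and 9.95 ± 1.58 at 15 days, and of 0.87 ± 1.18 at 9 days (adjusted p = 0.733). Across the 18 libraries their log2 CPM correlated at 0.921 (Pearson), the highest value among the 6 members, followed by LTP1 and LTP6 at 0.892 and LTP2 and LTP6 at 0.859. These correlations describe libraries that share ages, treatments and replicate numbers.

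LTP12, known from the tapetum of the anther, was at or below the limit of detection. It had at most 3 counts in any library and 1, 0 and 2 counts over the 3 libraries of the intact 9-, 12- and 15-day groups and 4, 3 and 1 over those of the cultured groups. A count of 0 in 1 library allows up to 3 counts, or 0.0706 to 0.102 CPM by group, counting error only. No comparison was made.

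Set against all genes, the members' counts were as follows. After culture at 9 days 2 of 6 rose (LTP2 and LTP5), where 5.82% of all genes tested rose and 3.72% fell. At 12 days LTP2 and LTP6 rose among the 4 members whose values there were not used in the choice (LTP1, LTP2, LTP5 and LTP6), where 10.4% rose and 9.33% fell. At 15 days 5 of 6 were called higher, where 21.1% of genes were called higher and 20.8% lower, and nothing is read from this count because the choice of the members used it. In intact leaves 2 of 6 fell from 9 to 12 days (LTP2 and LTP6), where 4.02% of genes fell and 3.42% rose. From 12 to 15 days 2 of 6 fell (LTP1 and LTP6), where 9.3% fell and 5.24% rose, and from 9 to 15 days 3 of 6 fell (LTP1, LTP2 and LTP6), where 22% fell and 23.2% rose. Between cultured 12- and 9-day explants none of those 4 differed past the threshold, by edgeR's adjusted or unadjusted p or in DESeq2, where 1.97% of genes were higher and 2.52% lower. Between cultured 15- and 9-day explants 2 of 6 were called higher (LTP3 and LTP4), where 10.8% of genes were higher and 13.1% lower, and between 15 and 12 days none of 6 was called by edgeR, at an unadjusted p under 0.05 or in DESeq2, where 0.196% of genes were. Nothing is read from these 2 counts, since the choice used these libraries. The difference in the response to culture between 12 and 9 days passed for none of 6 in edgeR, where 0.0525% of genes were called. DESeq2 called 3 of the 6 there (LTP2, and LTP3 and LTP4, whose values had been used), of 444 genes in all. Between 15 and 12 days edgeR called none of 6, where it called 2.78% of genes, and DESeq2 called 2, of 1476 genes in all. Between 15 and 9 days edgeR called 5 of 6 higher, where 11% of genes were called higher. Nothing is read from the last 2 counts, for the same reason.

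Other type 1 lipid transfer protein genes were measured for comparison. Of 5, AT2G15050 (LTP7) and AT5G01870 passed the filter. LTP7 was expressed in every group, at means of 85.6 to 135 CPM. AT5G01870 had at most 36 counts in any library and was called lower at 12 than at 9 days before culture (adjusted p = 0.00862), with up to 11 counts in the 9-day libraries and 0 in every intact 12- and 15-day library, a call lost in replicates 1 and 2. It was also called higher after culture at 12 days (adjusted p = 0.0179) and lower in cultured 12-day than 9-day explants (-2.94 ± 0.60, adjusted p = 0.0202), and both calls were lost in replicates 1 and 2. Of 12 GPI-anchored or defence-related lipid transfer protein genes, 10 passed, and 3, 4 and 7 rose after culture at 9, 12 and 15 days while 0, 2 and 2 fell. Over all genes tested 5.82%, 10.4% and 21.1% rose at these ages and 3.72%, 9.33% and 20.8% fell. EARLI1, a proline-rich member induced by cold, rose by 8.46 ± 0.57 at 9 days (adjusted p = 5.86e-07), and DIR1, a carrier in systemic acquired resistance, fell by 2.79 ± 0.46 at 12 days (adjusted p = 0.000667). In intact leaves 6 of these 10 fell from 9 to 15 days and none rose, where 22% of all genes fell and 23.2% rose. The falls were led by DIR1-LIKE (-4.84 ± 0.86, adjusted p = 0.000425).

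Genes of the cuticle pathway were taken from lists by function. Of 11 cutin synthesis genes tested, 9 fell and none rose from 9 to 15 days in intact leaves, where 22% of all genes fell and 23.2% rose, with a median log2 difference of -2.81 beside 0.07 over all genes. Among the falls were those of GPAT6, an acyltransferase of cutin monomer synthesis (-4.79 ± 0.65, adjusted p = 5.1e-05), and HTH (-4.78 ± 0.31, adjusted p = 9.36e-08). After culture at 12 days 2 of the 11 rose and 2 fell, among them CYP86A4, a fatty acid hydroxylase, at 2.61 ± 0.50 (adjusted p = 0.00186) and GPAT8 at -2.14 ± 0.52 (adjusted p = 0.00898). In replicates 1 and 2 the same comparison gave 2 higher and 0 lower, and without the libraries that stood apart 2 higher and 4 lower of 12. At 9 days none rose and 2 fell, and at 15 days 4 rose and 2 fell. Over all genes tested 5.82%, 10.4% and 21.1% rose after culture at 9, 12 and 15 days and 3.72%, 9.33% and 20.8% fell. Of 10 wax synthesis genes, 7 fell and 1 rose from 9 to 15 days before culture. CER1, needed for alkane synthesis, fell by 7.66 ± 1.58 (adjusted p = 0.00134), and CER6, an elongase, rose by 0.98 ± 0.32 (adjusted p = 0.0216). After culture 1, 2 and 6 of the 10 rose at 9, 12 and 15 days and 0, 0 and 1 fell, and CER1 rose by 5.47 ± 1.39 at 12 days (adjusted p = 0.012). Of 9 regulators of cuticle genes 4 fell from 9 to 15 days before culture and none rose, and none, 1 and 1 rose after culture at the 3 ages while 1 fell at 15 days (DEWAX, a repressor of wax genes, at -2.68 ± 0.84, adjusted p = 0.0195). The 3 cuticle lipid exporters tested were not called in any comparison.

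Of 16 abscisic acid and dehydration response genes, all tested, 1 rose after culture at 9 days, 8 at 12 days and 6 at 15 days, and 0, 0 and 1 fell. Over all genes tested 5.82%, 10.4% and 21.1% rose at these ages and 3.72%, 9.33% and 20.8% fell. The median log2 change of the 16 at 12 days was 1.15, beside -0.03 over all genes. Without the libraries that stood apart 3, 10 and 7 of them rose at the 3 ages. In replicates 1 and 2 none rose at 9 days, 5 at 12 days and 4 at 15 days. Between cultured 12- and 9-day explants 7 rose and none fell, where 1.97% of all genes were higher and 2.52% lower. In that comparison 2 rose in replicates 1 and 2, and 10 without the libraries that stood apart. Between cultured 15- and 9-day explants 11 rose, where 10.8% of all genes were higher and 13.1% lower. RD29B, a dehydration-induced gene also named LTI65, rose after culture at 12 days by 8.79 ± 1.43 (adjusted p = 0.000607) and KIN1, a cold- and abscisic acid-induced gene, by 5.69 ± 0.85 (adjusted p = 0.000311). Before culture, where LTP3 and LTP4 did not pass the test, 8 of the 16 rose from 9 to 15 days and none fell. Over all genes 23.2% rose and 22% fell in that comparison. Among the 8 was RD26, a NAC factor (4.43 ± 0.76, adjusted p = 0.000346). The summed level of the 16 genes in the cultured 12-day explants was 3143, 6276 and 4596 TPM in replicates 1, 2 and 3, lowest in the library with little LTP4. That order did not extend to other ages. Replicate 3 of the cultured 9-day explants had a higher sum of 3221 TPM with 9 LTP4 counts. Replicate 3 of the cultured 15-day explants had a lower sum of 2818 TPM with 3431 LTP4 counts. A link between the sum and LTP4 was not tested.

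The genes most like LTP3 and LTP4 were found by Pearson correlation of log2 CPM over the 18 libraries among 14895 genes with a mean of at least 5 CPM. For LTP3 they were AT2G36580 (annotated as a pyruvate kinase family gene, r = 0.962), PMDH1 (a peroxisomal malate dehydrogenase, 0.954), AT3G22845 (a p24 family gene, 0.953), AT5G24200 (an alpha/beta-hydrolase family gene, 0.95) and KIN1 (0.949). For LTP4 they were LEA7 (a late embryogenesis abundant protein gene, 0.941), PBF1 (a proteasome subunit gene, 0.935), AT3G17520 (another late embryogenesis abundant protein gene, 0.933), LTI65 (0.931) and PBD2 (a proteasome subunit gene, 0.908). These genes were picked by correlation over the same libraries, so a shared pattern is partly built into the choice. LEA7 and LTI65 showed the gap seen in LTP4 among the cultured 12-day explants, with 0.284, 111 and 58.2 CPM for LEA7 and 0.511, 86.6 and 81.5 CPM for LTI65 in replicates 1, 2 and 3. AT3G17520 showed it too (0.17, 29.4 and 36.1 CPM). PBF1 (148, 192 and 170 CPM) and PBD2 (70.5, 105 and 87.6 CPM) showed no such gap in these explants. KIN1 was at 21, 115 and 63.2 CPM there. By rank correlation AT2G36580, PMDH1, AT3G22845, AT5G24200 and KIN1 ranked 25, 92, 11, 240 and 1 for LTP3. LEA7, PBF1, AT3G17520, LTI65 and PBD2 ranked 1292, 69, 1953, 789 and 230 for LTP4. Likeness of pattern is not likeness of size. From intact 9-day leaves to cultured 15-day explants mean LTP3 went from 0.259 to 316 CPM. AT2G36580 went from 38.7 to 98.2 CPM, PMDH1 from 50.9 to 108 CPM and AT3G22845 from 67.1 to 139 CPM.

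Markers of leaf cell types also moved between the groups, and all genes moved too. From 9 to 15 days before culture 22% of all genes tested fell and 23.2% rose. After culture at 9, 12 and 15 days 3.72%, 9.33% and 20.8% of all genes fell and 5.82%, 10.4% and 21.1% rose. The summed level of 6 epidermis genes was 262 to 354 TPM in 9-day leaves before culture, 150.5 to 186 TPM at 12 days and 111 to 152 TPM at 15 days, and 168 to 211, 115 to 189 and 103 to 125 TPM in the cultured explants. All 6 were detected in every library, 3 of 6 fell from 9 to 15 days before culture, and none rose after culture at any age while 1, 2 and 1 fell at 9, 12 and 15 days. The part of any change in the epidermis in the rises of LTP2 and LTP6 after culture was not tested. Nor was the part of the epidermis genes' decline in the falls of LTP1, LTP2 and LTP6 with age. Of 5 mesophyll genes 3 fell from 9 to 15 days before culture and 1, 3 and 2 after culture at the 3 ages, and their sum ran from 15973 to 61389 TPM over the intact groups and from 17282 to 40279 TPM over the cultured ones. All 4 xylem genes fell from 9 to 15 days before culture. Of 5 guard cell genes 1 fell in that comparison, of 2 trichome genes tested 1, of 2 root genes tested 1, and of 3 phloem genes 1 rose and 1 fell. Nothing is read from these small counts. The trichome gene GL1 was at 0 in 16 libraries and the root gene WOX5 in 11, with a highest level of 0.24 TPM.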

How the data were processed

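The values start from 18 gene tables, 1 per library. Per the submitters' processing notes, reads were trimmed with Trimmomatic, aligned with STAR 2.5.3 to TAIR10 and quantified with RSEM 1.3.0; the annotation and strand setting are not given in the sources used here. Per the file headers, each deposited table holds expected counts (reads per gene as RSEM shares them among genes), TPM and FPKM. The deposited FPKM values were not used. The series text calls the samples biological duplicates and the labels give 3 replicates per group. The labels do not say which plants or cultures each library came from, so the p-values reflect library-to-library spread, which may be partly technical.

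The deposited expected counts were rounded and tested with edgeR 4.0.16 (R 4.3.3) in a quasi-likelihood fit of all 18 libraries with TMM factors, 1 mean per group, and a filter at a minimum count of 10, which kept 20952 genes. Benjamini-Hochberg adjustment ran over these genes within each of 12 comparisons. The SE of a log2 fold change is its size over the square root of F. The common biological coefficient of variation was 0.34. On simulated counts for culture at 9 days (20669 genes), 22 of 100 genes changed 2-fold and 78 of 100 changed 4-fold were called, with 5 false calls. Alternatives were DESeq2 1.42.0, other scaling, no filter, a replicate block, a batch term, left-out libraries, summed neighbouring genes, and limma 3.58.1 on the authors' TPM with a pseudocount of 0.1. Correlations and the values from replicate 3 alone used log2 CPM with a prior count of 2. The TAIR10.1 genes match the tables in 99.1% of 16748 compared gene lengths.

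The members and gene lists were chosen with earlier results of these data known. The genes named are all members, the 5 most correlated with LTP3 and with LTP4, and from each list and comparison described genes among up to 2 with the largest called change in each direction.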

Additional observations from a re-analysis of the deposited data

How the results depend on the processing

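Calls rest on 3 libraries per group, and a count near 0 limits LTP2, LTP3, LTP4 and LTP6 in intact 12- and 15-day leaves. Of the values recomputed for the members, 1999 kept direction and side of the threshold, 36 lost the call, 8 gained it, 34 tested values changed sign and 11 counts moved. The lost and gained calls include comparisons of LTP3 and LTP4 whose values had been used in the choice. Nothing is read from those totals. The sign changes were all in differences that were not called, and where no construction shows it the cause was not tested.

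The replicate number was not taken to pair the samples, since not every same-numbered pair correlated over 0.1: 32 of 45 did (range -0.287 to 0.683), 7, 10 and 15 of 15 for replicates 1, 2 and 3 (0.13 to 0.583 for replicate 3), and 14 of 18 libraries matched best with their own number, a hint from the data and not the design. With the number as a replicate block, genes called went from 1999 to 3085 (culture at 9 days), 1559 to 2628 (intact, 12 against 9 days), 3046 to 4666 (intact, 15 against 12), 942 to 1626 (cultured, 12 against 9), 41 to 271 (cultured, 15 against 12), and for the difference of culture response 11 to 50 (12 against 9) and 582 to 1442 (15 against 12). The block called 1 member (LTP2) in the difference of response at 12 against 9 days and gave LTP1 0.0018 after culture at 9 days.

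A batch term for replicate 3 gave 2572, 1555, 292, 59 and 1272 genes for intact 12 against 9, cultured 12 against 9, cultured 15 against 12 and the differences of response 12 against 9 and 15 against 12, 1 member in the fourth of these, and LTP1 0.0046 after culture at 9 days. Without the 2 libraries that stood apart, the counts were 3844 (culture at 9 days), 2023 (cultured 12 against 9), 722 (cultured 15 against 12), 58 and 1505 (differences of response 12 against 9 and 15 against 12), with 1 member in the last. DESeq2 gave 3082 (culture at 9 days), 2779 (intact 12 against 9), 1673, 767, 444 and 1476 in that order of the rest, with 3 and 2 members in the differences of response.

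Leaving out libraries gave 316 to 2967 genes after culture at 9 days, 1670 to 5318 at 12 and 4497 to 9237 at 15 days; 146 to 2643, 551 to 4349 and 5919 to 9871 in intact leaves at 12 against 9, 15 against 12 and 15 against 9 days; 50 to 1423, 0 to 126 and 885 to 6353 in cultured explants in the same order; and 0 to 87, 0 to 1227 and 762 to 4889 for the differences of response. Members called ranged from 0 to 2 after culture at 9 days (main fit, all genes: 5.82% rose, 3.72% fell) and 2 to 4 at 12 days (10.4%, 9.33%). The range was 0 to 2 in intact 12 against 9 (3.42%, 4.02%), intact 15 against 12 (5.24%, 9.3%) and cultured 12 against 9 (1.97%, 2.52%). It was 0 to 1 in the first 2 differences of response (0.0525% and 2.78% called) and 1 to 5 in the last (11% higher). The counts at 12 days, in cultured 12 against 9 and in the differences include members whose values had been used. Nothing is read from them.

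Log2 values that changed sign were as follows. LTP1 after culture at 9 days was 0.18 on TPM, 0.36 summed with LTP2 and -0.26 to 0.12 with libraries left out. LTP2 in cultured 12 against 9 days was 0.18 summed with LTP1. LTP3 in intact leaves was -0.48 (12 against 9) and -0.90 (15 against 9) without the libraries that stood apart, and -0.21 and -0.70 summed with LTP4; leaving out libraries gave -0.51 to 2.83 and -0.92 to 2.51, and -1.66 to 0.90 for 15 against 12. LTP4 after culture at 9 days was 0.87 summed and -1.64 to 0.0158 with libraries left out, and in intact leaves -2.41 to 0.0378 for 12 against 9 and -1.37 to 1.15 for 15 against 12, where it was 0.45 without the libraries that stood apart and 0.13 on TPM. LTP5 in intact 15 against 12 days was 0.0514 on TPM and -0.29 to 0.0088 with libraries left out. LTP6 in cultured 12 against 9 days was -0.23 to 0.16.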
